A study of Mus musculus with 8 samples.

Results

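Axon guidance genes encode the cues and receptors that tell a growing axon where to turn, stop or cross the midline. They were examined here as 71 protein-coding genes of the mouse, among 38355 genes counted (21173 of them protein-coding). The 71 were chosen by symbol, with earlier results of these data known. They comprise 5 netrins, 6 netrin receptors, 3 Slits, 4 Robos, 7 class 3 semaphorins, 13 membrane-bound semaphorins, 2 neuropilins, 9 plexins, 8 ephrins and 14 Eph receptors. RNA sequencing was done on total RNA of thoracic dorsal root ganglia, which house the cell bodies of sensory neurons, dissected with the spinal cord. All embryos were of strain C57Bl6 at embryonic day E11.5. A group of 4 libraries with the genotype Wild Type (WT) was compared with a group of 4 with the genotype Prdm12-/- (KO), to find genes that depend on this zinc-finger transcription factor in somatosensory neurons. The labels do not say how the deletion was made or whether a library holds 1 embryo or several, so p-values measure the spread between these libraries, which may be technical.

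The families work as ligand and receptor systems. Netrins attract axons through Dcc and Neo1 and repel them through Unc5 receptors. Slits repel axons through Robos, which keeps commissural axons from recrossing the floor plate. Class 3 semaphorins are secreted and act through neuropilins paired with plexins, while semaphorins bound to the membrane mostly bind plexins directly. Ephrins are anchored in the membrane and signal to Eph receptors on contact. At this stage sensory axons are growing into the periphery and along the dorsal cord, and commissural axons are crossing the ventral midline.

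Library totals lay between 23088908 and 28500792 counts in 7 libraries and at 67782435 counts in WT replicate 1. Prdm12 itself was 32.9 ± 7.86 CPM in WT against 1.25 ± 0.329 CPM in KO (n = 4 each, SD), where CPM is counts scaled to library size, and every KO library lay below every WT library. Of 12 sensory neuron markers 11 were tested, and Pou4f1, a transcription factor of sensory neurons, was among those that fell in KO. The summed level of the markers was 441 to 604 CPM in WT and 412 to 482 CPM in KO. The 12 skeletal muscle markers summed to 676 to 819 CPM in WT and 768 to 1091 CPM in KO, and 0 of them passed the test, although 9 had an unadjusted p under 0.05 in the direction of higher KO. The libraries hold several tissues, so fewer cells of a type and less RNA per cell cannot be told apart in any value below.

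All 71 guidance genes passed the filter on low counts, and 69 of them had a WT mean of at least 1 CPM, 63 of at least 10 CPM and 27 of at least 100 CPM. Between genes, levels were compared per kb of annotated exon. On that scale Plxnb2, a plexin that receives class 4 semaphorins, was highest, at 59.6 ± 2.62 CPM per kb (SD, n = 4) in WT. Ntn1, the netrin made by floor plate and ventricular zone, followed at 50.3 ± 1.44 CPM per kb (SD, n = 4). The ephrin Efnb1 (41.1 ± 1.52 CPM per kb) and the receptor Ephb4 (40.9 ± 1.41 CPM per kb, SD, n = 4 for both) came next and differed by less than their SD. Neo1 stood at 38.0 ± 1.55 and Efnb3, a midline ephrin, at 35.3 ± 1.30 CPM per kb (SD, n = 4 for both). Plxnb3 was lowest at 0.138 ± 0.0327 CPM per kb and Epha6 next at 0.172 ± 0.0509 CPM per kb (SD, n = 4 for both), again within their spread of each other.

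**Figure D1:**
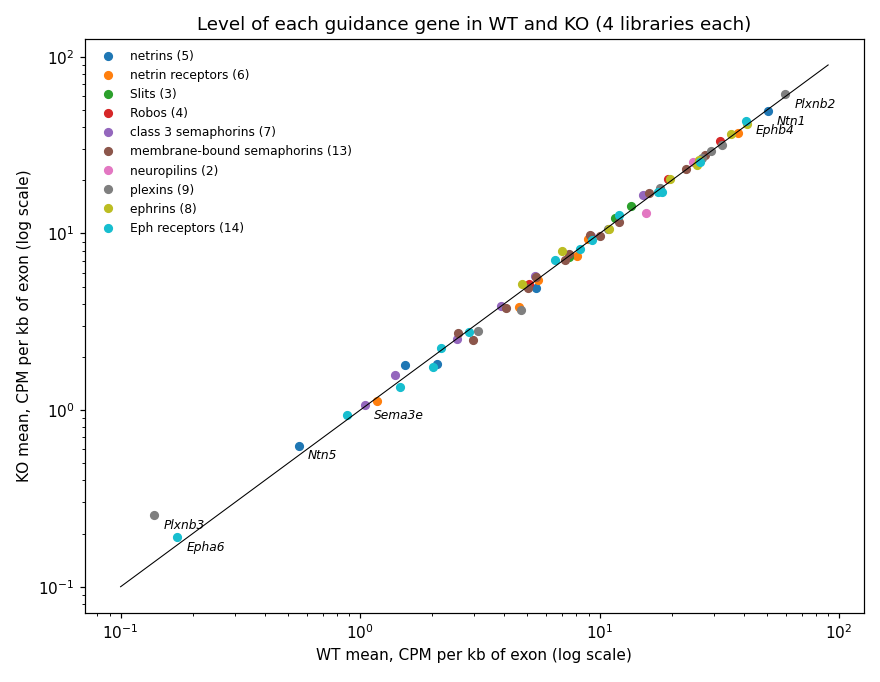
Mean level of each of the 71 guidance genes in WT (x axis) and KO (y axis), in CPM per kb of exon on log scales, coloured by family, with the line of equal level. The genes span 0.138 to 59.6 CPM per kb in WT and lie close to the line, with Plxnb3 above it at the low end.

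None of the 71 guidance genes changed in KO with edgeR's quasi-likelihood test at an adjusted p under 0.05, where 0.299% of 16068 tested genes were called (0.056% higher and 0.243% lower). At an unadjusted p under 0.05, 2 were higher (Plxnb3 and Efna1) and 4 lower (Unc5a, Sema4d, Nrp1 and Ntn4), 8.45% of the 71 against 6.35% of all tested genes (3.03% higher and 3.32% lower). DESeq2 also called 0 of the 71, against 0.641% of all tested genes. Limma-voom called 2 lower, Nrp1 and Unc5a, against 0.641% of all tested genes called lower in that fit. The groups did not overlap in 2 guidance genes, Unc5a and Efna1, or 2.82% against 4.14% of all tested genes (1.69% higher and 2.45% lower). The median log2 fold change (KO over WT) was 0.02 for the 71 and -0.003 for all tested genes. Positive values were found for 39 guidance genes and negative ones for 32, where 48.4% of all tested genes had positive values. With library totals the counts for the 71 were 42 and 29. The balance turned to 31 and 40 without WT replicate 1, to 30 and 41 with limma-voom (median -0.02) and to 21 and 50 with a covariate of muscle and mesenchyme markers (median -0.06). The markers in that covariate were themselves higher in KO, at a mean log2 CPM of 5.21 against 4.96 in WT for muscle. For mesenchyme the means were 6.88 in KO and 6.74 in WT. A fit with this covariate therefore cannot separate genotype from these markers, here or below.

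The data were precise enough to bound most differences in the dissected tissue as a whole. A change confined to a part of its cells, such as sensory neurons, is not bounded in those cells. The 95% interval of the log2 fold change, unadjusted for the number of genes, lay inside a 1.5-fold change in either direction for 67 of the 71 guidance genes (94.4%), against 82.3% of all tested genes. These shares were not matched for level, and the guidance genes had a median WT mean of 70.1 CPM. The 4 with wider intervals were Plxnb3, Plxna4, Epha6 and Ntn5. Of these Plxna4, at a WT mean of 66.1 CPM, was the one with a level above 2 CPM, and its interval ran from -0.73 to 0.03. The difference was under 0.1 log2 units for 51 of the 71 (71.8%, against 68.0% of all tested genes).

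**Figure D2:**
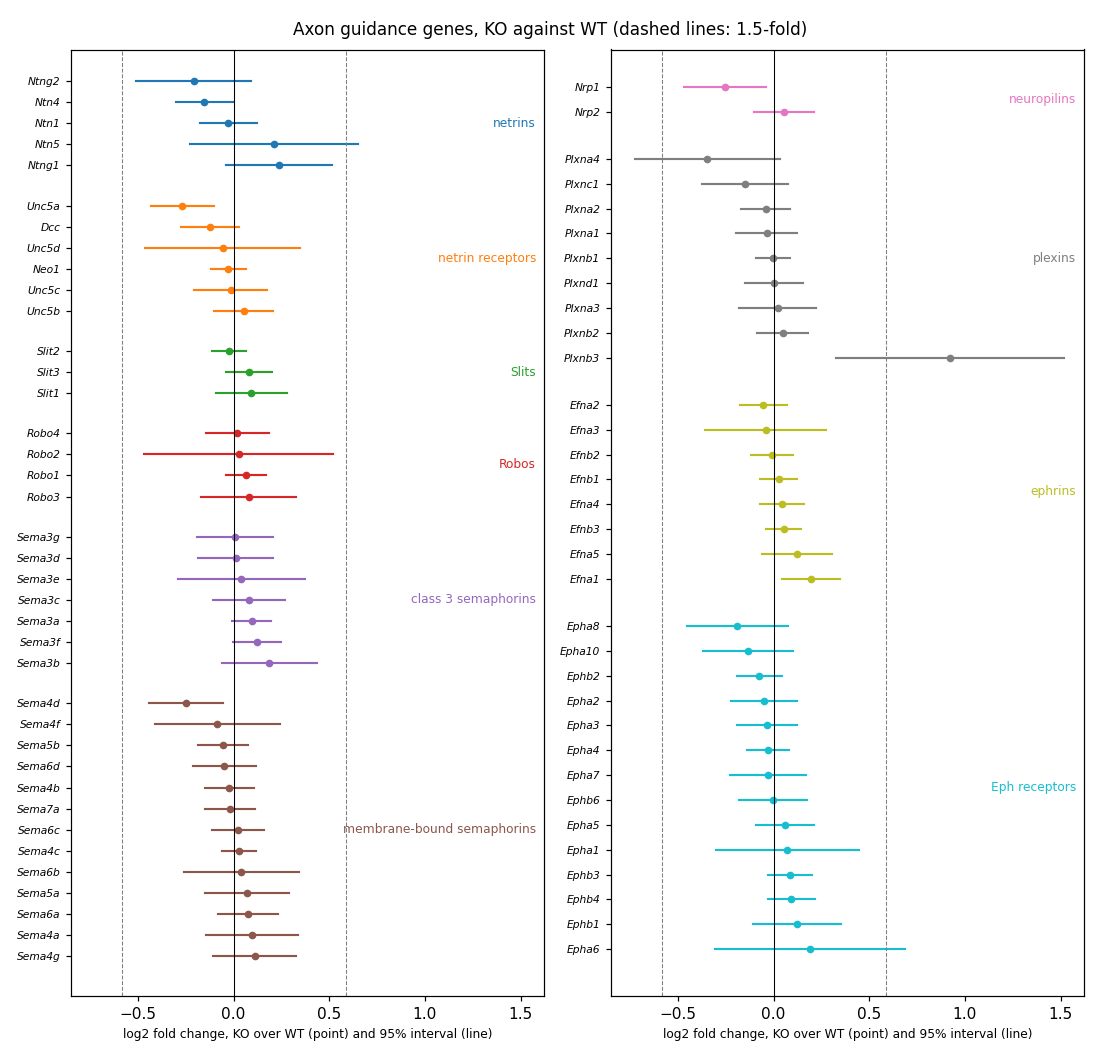
Log2 fold change of KO over WT (point) with its 95% interval (line) for the 71 guidance genes, grouped by family, with dashed lines at a 1.5-fold change in either direction. Of the 71 intervals, 67 lie between the dashed lines, and the point of Plxnb3 (0.92) lies beyond them.

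Of the 5 netrins and 6 netrin receptors 0 passed the test. Ntn1 measured 315, 304, 326 and 318 CPM across WT replicates 1 to 4, and 281, 296, 302 and 359 CPM across KO replicates 1 to 4. The KO libraries lay on both sides of the WT ones (log2 fold change -0.03, 95% interval -0.18 to 0.12). Dcc, the attractive netrin receptor of commissural axons, measured 107, 114, 99.2 and 106 CPM across WT replicates 1 to 4, and 111, 98.0, 88.2 and 93.6 CPM across KO replicates 1 to 4. The groups overlapped, and its log2 fold change of -0.12 (SE 0.07, edgeR adjusted p = 0.845) did not pass. Neo1, a relative of Dcc that binds netrins and repulsive guidance molecules, averaged 331 ± 13.5 CPM in WT against 324 ± 3.51 CPM in KO (n = 4 each, SD).

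The netrin receptor with the smallest p of all 71 genes was Unc5a, one of the repulsive receptors (ENSMUSG00000025876, mm10 chromosome 13, 54949411 to 55006018, plus strand). Unc5a measured 17.5, 19.2, 21.2 and 18.9 CPM across WT replicates 1 to 4, and 15.6, 15.8, 14.8 and 17.4 CPM across KO replicates 1 to 4. Every KO library lay below every WT library, though KO replicate 4 and WT replicate 1 nearly met. The log2 fold change was -0.27 (SE 0.08, 95% interval -0.43 to -0.10, edgeR adjusted p = 0.39), and limma-voom with quality weights gave -0.33 (adjusted p = 0.0494). The other Unc5 genes, Unc5b, Unc5c and Unc5d, had log2 fold changes of 0.05, -0.01 and -0.06. Of the 6 netrin receptors 5 had negative values, also with library totals or median-of-ratios scaling, but 3 did without WT replicate 2. In the fit of all libraries 48.4% of all tested genes had positive values.

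The less abundant netrins had values of either sign. Ntn4, a netrin of basement membranes, measured 21.6, 18.9, 20.1 and 20.7 CPM across WT replicates 1 to 4, and 19.5, 17.7, 19.1 and 17.01 CPM across KO replicates 1 to 4, and the groups overlapped. Its log2 fold change was -0.15 (SE 0.07, edgeR adjusted p = 0.775), and 0.01 with a covariate of muscle and mesenchyme markers. The netrin-G genes, whose products are held in the membrane by a lipid anchor and bind NGL proteins in place of Dcc, had opposite signs. Ntng1 averaged 12.7 ± 2.31 CPM in WT against 14.8 ± 0.978 CPM in KO, with WT replicate 1 at 9.30 CPM and the other 3 WT libraries at 13.3 to 14.5 CPM. Ntng2 averaged 8.34 ± 1.49 CPM in WT against 7.26 ± 0.877 CPM in KO (n = 4 each, SD). It shares 558 bp of exon with the counted gene 6530402F18Rik on the same strand, and reads in that stretch could have been given to either.

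Of the 3 Slits and 4 Robos 0 passed the test. Slit2 averaged 190.2 ± 4.69 CPM in WT against 186.9 ± 7.28 CPM in KO (n = 4 each, SD) with a 95% interval of -0.12 to 0.06. Slit1 averaged 80.0 ± 5.43 CPM in WT against 85.2 ± 10.9 CPM in KO, and Slit3 averaged 70.1 ± 3.52 CPM in WT against 74.1 ± 4.78 CPM in KO (n = 4 each, SD). Robo1, the Slit receptor with the most counts, averaged 319 ± 13.1 CPM in WT against 334 ± 15.3 CPM in KO (log2 fold change 0.06, adjusted p = 0.91 with edgeR).

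Robo3, which lets commissural axons approach the midline before crossing, had the highest level per kb of the Robos. It measured 225, 178, 227 and 239 CPM across WT replicates 1 to 4, and 247, 255, 228 and 189 CPM across KO replicates 1 to 4. The lowest library of each group lay well below its other 3, and the groups overlapped (log2 fold change 0.08, interval -0.17 to 0.33). With a covariate of muscle and mesenchyme markers the log2 fold change was 0.40 (edgeR adjusted p = 1). Robo2 measured 54.4, 109, 89.0 and 94.0 CPM across WT replicates 1 to 4, and 93.7, 103, 77.0 and 76.6 CPM across KO replicates 1 to 4. WT replicate 1 was the lowest of all 8, and the log2 fold change of 0.03 was -0.14 without it. Robo4, an endothelial member that lies 553 bp from Robo3 on chromosome 9, had a log2 fold change of 0.02.

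Of the 7 secreted class 3 semaphorins 0 passed, and all 7 had small positive values in the fit of all libraries, also with library totals or median-of-ratios scaling. Among all tested genes, 48.4% had positive values in the fit of all libraries. Sema3a, the repellent of sensory axons that express Nrp1, measured 73.2, 78.7, 74.6 and 70.7 CPM across WT replicates 1 to 4, and 76.1, 81.6, 82.4 and 76.9 CPM across KO replicates 1 to 4. The KO libraries were mostly higher but overlapped WT replicate 2 (log2 fold change 0.09, SE 0.05, edgeR adjusted p = 0.822). Sema3f, a ligand of Nrp2, averaged 78.7 ± 5.88 CPM in WT against 85.5 ± 3.79 CPM in KO. Sema3b, which lies 72270 bp from Sema3f on chromosome 9, averaged 6.69 ± 0.784 CPM in WT against 7.56 ± 0.761 CPM in KO (n = 4 each, SD). The median of the 7 was 0.08, and without WT replicate 1 it was 0.00067, with 4 positive and 3 negative values. Limma-voom also gave 4 and 3 (median 0.01), and a covariate of muscle and mesenchyme markers gave 3 and 4 (median -0.07).

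Nrp1, the neuropilin that binds Sema3a, was called in some fits and not in others (ENSMUSG00000025810, mm10 chromosome 8, 128358604 to 128503363, plus strand). Nrp1 measured 122, 168, 167 and 157 CPM across WT replicates 1 to 4, and 130.2, 139.8, 126 and 118 CPM across KO replicates 1 to 4. The other 3 WT libraries lay above every KO library, whereas WT replicate 1 lay within the KO range. The means were 154 ± 21.3 CPM in WT against 129 ± 9.02 CPM in KO (n = 4 each, SD), with a log2 fold change of -0.25 (SE 0.10, edgeR adjusted p = 0.706). With limma-voom and quality weights it was -0.32 (adjusted p = 0.0357), which was a call.

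Without WT replicate 1, Nrp1 was called lower in KO, at a log2 fold change of -0.34 (edgeR adjusted p = 0.00936), and no other guidance gene was called there, where 0.69% of all tested genes were called lower. Leaving out any other single library gave Nrp1 a log2 fold change between -0.30 and -0.21 without a call. With both WT replicate 1 and KO replicate 3 left out, a choice made after seeing the data, it was -0.34 with an adjusted p of 0.0608. The sensory neuron markers also stood low in WT replicate 1. Their mean log2 CPM was 4.42 in WT replicate 1, 4.96 to 5.04 in the other WT libraries and 4.21 to 4.53 in KO, and their part in the Nrp1 values was not tested. Nrp2, the other neuropilin, averaged 291 ± 31.4 CPM in WT against 301 ± 14.3 CPM in KO (n = 4 each, SD).

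The plexins, the signalling partners of neuropilins, held both extremes of the 71 fold changes. Plxna4, a partner of Nrp1 in the response of sensory axons to Sema3a, measured 48.4, 86.9, 68.9 and 60.1 CPM across WT replicates 1 to 4, and 53.8, 55.8, 45.4 and 51.7 CPM across KO replicates 1 to 4. As for Nrp1, WT replicate 1 lay within the KO range and the other 3 WT libraries above it. The log2 fold change was -0.35 (SE 0.17, edgeR adjusted p = 0.822), and no alternative that was run called it. It was -0.19 without WT replicate 2, the highest library, and -0.58 with a covariate of muscle and mesenchyme markers. Plxnb2 averaged 460.4 ± 20.2 CPM in WT against 476 ± 42.1 CPM in KO (n = 4 each, SD). Plxna1, Plxna2 and Plxna3, the other class A plexins, had log2 fold changes of -0.04, -0.04 and 0.02.

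Plxnb3, a receptor for the semaphorin Sema5a, had the largest log2 fold change of the set at 0.92 (SE 0.27, 95% interval 0.32 to 1.52), but at the lowest level. It measured 0.639, 0.996, 0.823 and 1.13 CPM across WT replicates 1 to 4, and 1.12, 2.52, 1.4996 and 1.49 CPM across KO replicates 1 to 4. KO replicate 2 was far above the others, and KO replicate 1 lay just below WT replicate 4, so the groups overlapped. On library totals, without TMM factors, every KO library lay above every WT library. The edgeR adjusted p was 0.448, and the log2 fold change lay between 0.62 and 1.07 over the alternatives without a call in any of them. Its counts were as low as 21 per library, so the value rests on few reads.

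Of the 13 membrane-bound semaphorins none passed, and 11 differed by less than 0.1 log2 units (84.6%, against 68.0% of all tested genes). Sema4d, a ligand of Plxnb1 and Plxnb2, was the lowest relative to WT (ENSMUSG00000021451, mm10 chromosome 13, 51685529 to 51793747, minus strand). Sema4d measured 19.3, 24.1, 25.0 and 22.8 CPM across WT replicates 1 to 4, and 20.7, 19.7, 18.7 and 17.4 CPM across KO replicates 1 to 4. WT replicate 1 again fell among the KO libraries, and the other 3 WT libraries lay above all of them. The log2 fold change was -0.25 (SE 0.09, edgeR adjusted p = 0.624) and -0.32 without WT replicate 1 (edgeR adjusted p = 0.0829). Sema4c, the most abundant of the class per kb, averaged 126 ± 4.52 CPM in WT against 128 ± 3.78 CPM in KO (n = 4 each, SD).

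**Figure D3:**
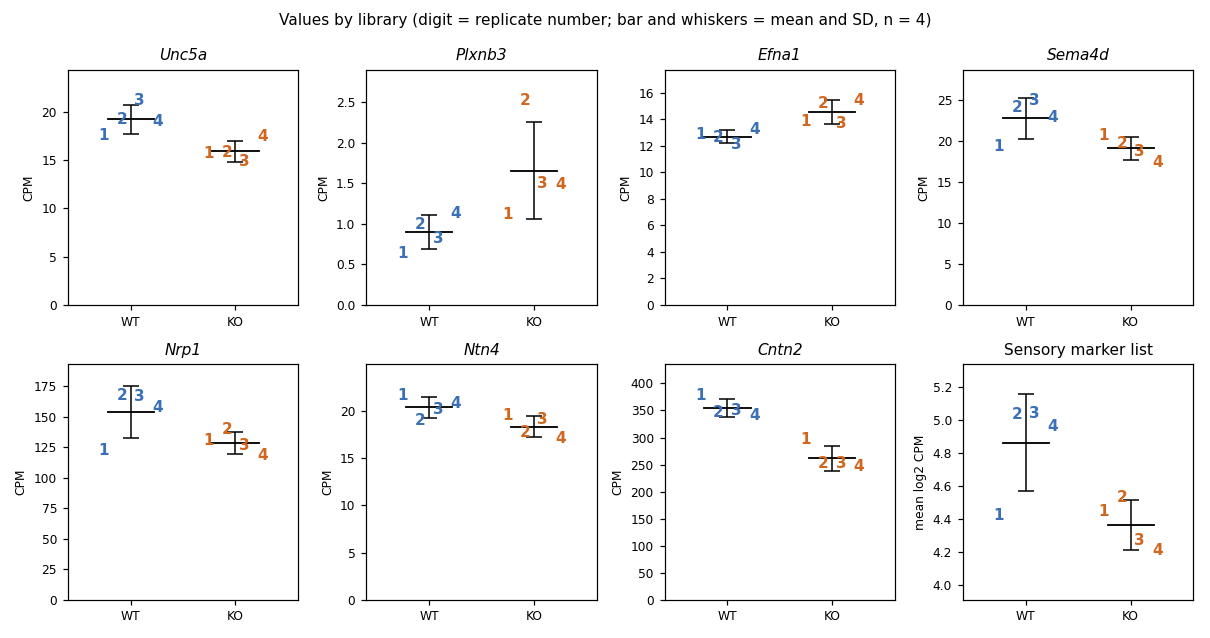
Values in each library for the 6 guidance genes with an unadjusted p under 0.05 and for Cntn2 (CPM, axes from 0), and the mean log2 CPM of the sensory marker list (axis not from 0). Digits are replicate numbers, bars and whiskers the mean and SD of 4 libraries. WT replicate 1 lies among the KO libraries for Sema4d, Nrp1 and the sensory marker list, while the groups are apart for Unc5a, Efna1 and Cntn2.

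Of the 8 ephrins 0 passed. Efna1, a ligand of EphA receptors, had every KO library above every WT library, as Plxnb3 did on library totals (ENSMUSG00000027954, mm10 chromosome 3, 89271733 to 89281142, minus strand). Efna1 measured 12.8, 12.7, 12.1 and 13.2 CPM across WT replicates 1 to 4, and 13.9, 15.2, 13.7 and 15.4 CPM across KO replicates 1 to 4. The groups were apart by a narrow margin, and the log2 fold change of 0.19 (SE 0.07, edgeR adjusted p = 0.624) did not pass. Efna3 and Efna4, which lie 32756 and 52247 bp from Efna1 on chromosome 3, had log2 fold changes of -0.04 and 0.04. Efnb1 averaged 142 ± 5.26 CPM in WT against 145 ± 6.51 CPM in KO, and Efnb3 averaged 112 ± 4.15 CPM in WT against 117 ± 3.53 CPM in KO (n = 4 each, SD).

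Among the 14 Eph receptors 0 had an unadjusted p under 0.05. Epha4, a receptor that reads midline Efnb3 in spinal neurons, averaged 141 ± 9.07 CPM in WT against 138 ± 4.45 CPM in KO (n = 4 each, SD). Its log2 fold change of -0.03 turned to 0.02 without WT replicate 1. Ephb4, best known from veins and capillaries, averaged 189.7 ± 6.54 CPM in WT against 202 ± 16.0 CPM in KO, and -0.04 was its log2 fold change with a covariate of muscle and mesenchyme markers against 0.09 without it. Ephb3 averaged 80.0 ± 3.87 CPM in WT against 84.8 ± 4.63 CPM in KO, and Epha8 averaged 9.53 ± 1.31 CPM in WT against 8.30 ± 0.952 CPM in KO (n = 4 each, SD). The other 41 guidance genes, outside those named by rule, had log2 fold changes between -0.15 and 0.21 and unadjusted p-values of at least 0.171.

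WT replicate 1 and KO replicate 3 were the lowest of their group in many guidance genes. WT replicate 1 was the lowest WT library in 46 of the 71 guidance genes (64.8%), against 34.1% of all tested genes. It was the lowest of all 8 libraries in 34 of the 71 (47.9%, against 20.6% of all tested genes). KO replicate 3 was the lowest KO library in 36 of the 71 (50.7%, against 22.3% of all tested genes). Relative to the mean of the other WT libraries, WT replicate 1 had a median log2 difference of -0.17 over the guidance genes and -0.004 over all tested genes. It lay more than 0.3 below in 22 of the 71 guidance genes, and the share of all tested genes that did so was not computed. For Sema4f, Efna3 and Epha8 too, picked after their values were seen, the other WT libraries lay above every KO library. With all 8 libraries the groups overlapped in each, at edgeR unadjusted p-values of 0.575, 0.775 and 0.140. The share of all tested genes with such a separation was not computed. Sema4f was 14.7 CPM in WT replicate 1, 23.5 to 24.0 CPM in the other WT libraries and 18.6 to 22.6 CPM in KO. Efna3 was 18.7, 28.2 to 31.5 and 23.3 to 27.9 CPM, and Epha8 7.62, 9.86 to 10.6 and 7.37 to 9.57 CPM. Without WT replicate 1, 2 guidance genes were higher and 8 lower at an edgeR unadjusted p under 0.05, against 2 and 4 with all libraries. Of all tested genes, 7.23% passed that level there, counted in either direction. Leaving out any other single library gave 1 to 5 guidance genes higher and 1 to 5 lower.

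The gap was uneven between families. It was deepest for the 2 neuropilins (median -0.35), the class 3 semaphorins (-0.29, lowest WT library in 6 of 7) and the membrane-bound semaphorins (-0.29, lowest in 12 of 13). The medians were -0.05 for the ephrins and for the Slits and -0.08 for the Eph receptors. Robo2 had the deepest single gap at -0.84, and Ntng2 the highest value at 0.42. WT replicate 1 also had 2.55 times the median total of the other libraries, the lowest mesenchyme marker mean (6.63 against 6.72 to 6.85 log2 CPM in the other WT libraries) and the lowest WT sensory marker mean. It was the lowest WT library in 6 of the 11 marker lists. The others were motor neurons (3.94 against 4.20 to 4.33 log2 CPM), spinal neurons (4.32 against 4.42 to 4.55), neural crest and glia (5.03 against 5.27 to 5.34) and erythroid cells (6.07 against 6.33 to 6.61). For neural progenitor markers it was the highest of all 8 libraries, at 6.17 log2 CPM. The part of these in its guidance values was not tested beyond a fit with WT replicate 1 thinned to 26532920 counts. That fit gave 39 positive and 32 negative values (median 0.016), with a smallest edgeR adjusted p of 0.446 among the guidance genes.

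**Figure D4:**
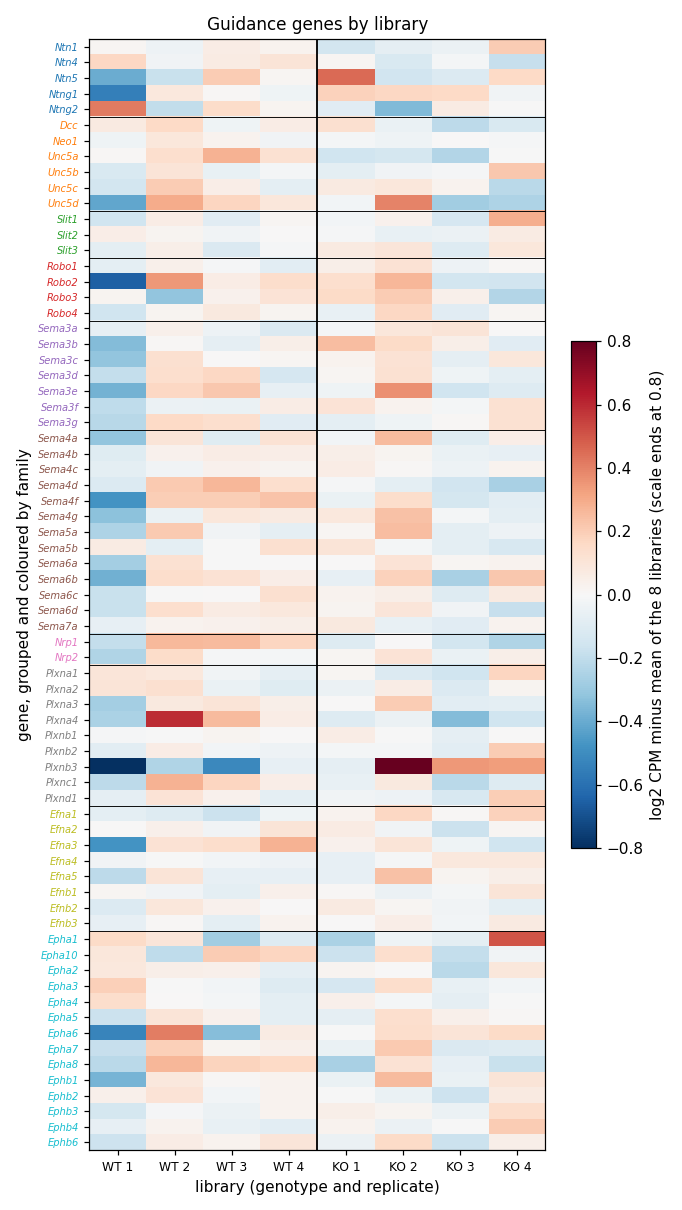
Log2 CPM of each of the 71 guidance genes in each library minus its mean over the 8 libraries, in families separated by lines (blue lower, red higher, colours end at 0.8). The column of WT replicate 1 is blue for most semaphorins and both neuropilins, and the groups are apart in 2 of the 71 genes.

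Other genes of guidance signalling were examined in 2 lists. Of 27 other cues and co-receptors 1 fell, 0 rose and 26 did not pass, where 0.299% of all tested genes were called. The list's median log2 fold change was -0.02 against -0.003 for all tested genes. At an edgeR unadjusted p under 0.05, 0 were higher and 3 lower (Cntn2, Draxin and Flrt1), or 11.1% against 6.35% of all tested genes. The groups did not overlap in Cntn2 and Draxin, or 7.41% of the list against 4.14% of all tested genes. The gene that fell was Cntn2, which encodes the adhesion molecule TAG-1 on commissural and sensory axons (ENSMUSG00000053024, mm10 chromosome 1, 132509427 to 132543256, minus strand). Cntn2 measured 378, 346, 349 and 342 CPM across WT replicates 1 to 4, and 296, 252, 252 and 246 CPM across KO replicates 1 to 4. The groups were well apart, with KO replicate 1 the highest of the KO libraries. The log2 fold change was -0.44 (SE 0.06, edgeR adjusted p = 0.0133). Draxin did not pass, at 111 ± 0.872 CPM in WT against 89.1 ± 13.4 CPM in KO (n = 4 each, SD). Its log2 fold change was -0.31 (SE 0.09, edgeR adjusted p = 0.429). Flrt1, at -0.37 (SE 0.15, edgeR adjusted p = 0.73), did not pass either, and its groups overlapped.

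The Cntn2 call was lost at adjusted p-values between 0.0511 and 0.0751 when WT replicate 3, WT replicate 4, KO replicate 2, KO replicate 3 or KO replicate 4 was left out, at log2 fold changes of -0.45 to -0.41. It was also lost with a covariate of muscle and mesenchyme markers (log2 fold change -0.27, edgeR adjusted p = 1). As these markers were higher in KO, that fit cannot tell whether the Cntn2 difference goes with genotype or with them. Of 40 intracellular effectors 0 passed with edgeR, DESeq2 or limma-voom, and the median was -0.02. At an edgeR unadjusted p under 0.05, 1 effector was higher (Dock1) and 3 were lower (Chn2, Srgap3 and Pak1). They made up 10% of the list, against 6.35% of all tested genes (3.03% higher and 3.32% lower). The groups did not overlap in the 3 lower ones, or 7.5% of the list against 4.14% of all tested genes. Dock1, whose groups overlapped, averaged 133 ± 7.89 CPM in WT against 145 ± 9.16 CPM in KO. Chn2, which encodes a Rac regulator, averaged 20.3 ± 1.38 CPM in WT against 17.5 ± 0.478 CPM in KO. Srgap3, a GTPase activating protein that binds Robo receptors, averaged 315 ± 8.55 CPM in WT against 284 ± 15.1 CPM in KO. The kinase gene Pak1 averaged 137 ± 8.90 CPM in WT against 126 ± 2.78 CPM in KO (n = 4 each, SD).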

How the data were processed

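Per the submitters' processing notes, reads were handled with STAR 2.3.0e, featureCounts 1.4.6-p1, DESeq2 1.8.2, FastQC 0.10.1 and SAMtools 0.1.18 on build mm10. The sources used here do not give settings, annotation release or strand use. The deposited files hold raw read counts per Ensembl gene, 1 file per library, and their 5 summary rows hold 0. Symbols, coordinates and exon lengths came from GENCODE M21 (GRCm38, the assembly of mm10), which matched 36602 of 38355 identifiers. The 1753 unmatched ones held 0.263% of counts. Ntn3 and the marker genes Drgx and Slc18a3 were not analysed here. Exon bases are shared with another annotated gene in 18 guidance genes, with one on the opposite strand in 14, and without strand such reads cannot be told apart.

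All 8 libraries were fitted in R 4.3.3 by edgeR 4.0.16 (genes kept by filterByExpr, TMM factors 0.991 to 1.012, robust quasi-likelihood F test, group alone), with Benjamini-Hochberg adjustment over 16068 genes at 0.05. The SE is the size of the log2 fold change over the square root of F. CPM uses TMM-adjusted totals, and marker means use log2 CPM with a prior count of 2. At the smallest total, 23088908 counts, genes near 1 CPM rest on few reads. No 2 libraries of a group agreed within sampling noise. The fit was also run on simulated data with the same spread for every gene and no deviating library. That run does not bear on the position of WT replicate 1.

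Guidance genes and lists were chosen with earlier results of these data known. The genes named were those past the threshold, the 8 of smallest p in each direction, the highest per kb of each family and 13 textbook genes, with called genes or the 3 of smallest p from each further list. Others named were chosen after their values were seen. A marker gene result is not reported here. Also tried were other scalings, other filters, limma 3.58.1 (voom with quality weights), DESeq2 1.42.0, a replicate term, a covariate (mean log2 CPM of muscle and mesenchyme markers), a thinned WT replicate 1 and fits without each library. Figures used matplotlib 3.10.9.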

Additional observations from a re-analysis of the deposited data

Results flagged for a closer look

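In 68 groups of 4 libraries (34 named genes in 2 genotypes), 3 held a library far from its other 3 by Dixon's test, and chance alone marks about 1 group in 20. Ntng1 was 13.4 CPM in KO replicate 4 against 15.2 to 15.5 CPM in the other KO libraries. Slit3 was 67.0 CPM in KO replicate 3 against 75.6 to 77.1 CPM in the others. Cntn2 was 296 CPM in KO replicate 1 against 246 to 252 CPM in the others.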

How the results depend on the processing

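The count of guidance genes called lower, 0 in the fit of all libraries, was 2 with limma-voom (Nrp1 at a log2 fold change of -0.32, Unc5a at -0.33) and 0 to 1 without single libraries, the 1 being Nrp1 without WT replicate 1. The count called higher was 0 under every alternative run. The other cues and co-receptors had 1 call, 0 with a covariate of muscle and mesenchyme markers and 0 to 1 without single libraries. Over all genes, 39 were called lower and 9 higher. These counts were 81 and 22 with DESeq2, 103 and 22 with limma-voom, 1 and 0 with the covariate, and 12 to 112 and 3 to 21 without single libraries. Replicate numbers are shared by the genotypes, but same-numbered libraries deviated together at correlations of only -0.19 to 0.28, and 1 of the 8 correlated best with its own number. With a replicate block 14 genes were called lower and 2 higher, 0 of them guidance genes, and Cntn2 stayed called.

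Among named genes, the signs that turned belonged to values that were not called. With the covariate, whose markers were higher in KO, the log2 fold changes became -0.044 for Ephb4, 0.0081 for Ntn4, -0.064 for Nrp2, -0.12 for Plxnb2, -0.13 for Slit1, -0.058 for Robo2 and 0.029 for Epha4. With limma-voom they became -0.052 for Robo2 and 0.017 for Epha4. With both WT replicate 1 and KO replicate 3 left out, chosen after seeing the data, they became 0.0036 for Slit2, -0.089 for Robo2 and 0.040 for Epha4. Without single libraries the values ranged from -0.0017 to 0.046 for Efnb1, from -0.10 to 0.015 for Ntn1, from -0.0049 to 0.12 for Nrp2, from -0.015 to 0.086 for Plxnb2, from -0.0052 to 0.16 for Robo3, from -0.14 to 0.16 for Robo2 and from -0.060 to 0.023 for Epha4. The cause of these changes was not tested. Depth limits Plxnb3, Epha6 and Ntn5, which lie near 1 CPM.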
